A study of Mus musculus with 6 samples.

Results

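Basement membrane genes were examined in mouse embryonic stem (ES) cells that overexpressed Prdm14. The 10 genes were chosen by name, with earlier results of these data known. They encode the laminin chains Lama1, Lama5, Lamb1 and Lamc1, the collagen IV chains Col4a1 and Col4a2, and the nidogens Nid1 and Nid2. The matrix proteins Sparc and Fbln2 complete the set. Of the 10 genes 9 were named by at least 1 probe. These 12 probes were the members measured, out of 45281 probes on the array. Lamb1, which encodes the beta chain that pairs with these laminin chains, had no named probe and was not analysed here. The annotation used covers only the probes of the authors' deposited normalized table, 15944 of the 45281. Of these 13778 carried 1 gene symbol, so which genes have a named probe depends on the probes kept in that table. A gene without a named probe may therefore still have an unnamed probe on the array. The samples were 3 cultures carrying a Prdm14 expression construct (Prdm14 overexpression) and 3 carrying a control vector, all of 129P2 background and grown with serum. By the study's methods the overexpressing lines are stable and their parent was an ES cell line with a Rex1-GFPd2 reporter, and the parent of the control vector cells is not stated in the sources that were read. Replicates of a group are passages that followed each other, and no separate clones are named. The p-values therefore cover only the variation from passage to passage, and any way in which the cell lines behind the vectors differ cannot be told apart from Prdm14 overexpression.

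Basement membranes are thin sheets of extracellular matrix. Laminins are trimers of an alpha, a beta and a gamma chain that assemble into a network on the cell surface, where integrins and dystroglycan bind the alpha chain. Collagen IV forms a second network of cross-linked trimers, nidogens bridge laminin to collagen IV, and SPARC and fibulins bind to this scaffold. In the early mouse embryo the primitive endoderm and its derivatives deposit the basement membrane on which the epiblast becomes polarized, and ES cells in culture also make laminins.

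Col4a1 and Col4a2 lie head to head on chromosome 8, so their promoter windows are shown first. The windows (RefSeq, GRCm38.p6) run from 250 bases before to 50 after the annotated start and are printed 5' to 3' on each gene's own strand. Col4a1 is on the minus strand at chr8:11312777-11313076 and Col4a2 on the plus strand at chr8:11312555-11312854. Capitals mark the 78 bases that both windows cover, read on opposite strands.
Col4a1: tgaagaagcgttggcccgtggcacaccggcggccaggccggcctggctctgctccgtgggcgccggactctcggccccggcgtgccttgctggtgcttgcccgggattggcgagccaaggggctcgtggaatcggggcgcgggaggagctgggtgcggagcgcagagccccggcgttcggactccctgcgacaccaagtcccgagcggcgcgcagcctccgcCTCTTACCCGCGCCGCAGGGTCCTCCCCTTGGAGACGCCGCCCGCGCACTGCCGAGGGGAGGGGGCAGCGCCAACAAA
Col4a2: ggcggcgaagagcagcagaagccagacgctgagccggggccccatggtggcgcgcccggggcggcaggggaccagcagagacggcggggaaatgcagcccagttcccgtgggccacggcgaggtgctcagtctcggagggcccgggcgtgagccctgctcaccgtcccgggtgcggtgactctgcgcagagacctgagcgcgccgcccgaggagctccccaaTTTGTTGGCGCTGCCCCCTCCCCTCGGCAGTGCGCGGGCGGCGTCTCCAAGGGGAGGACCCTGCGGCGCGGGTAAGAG
The annotated starts, at 11312826 for Col4a1 and 11312805 for Col4a2, were 21 bases apart. The shared stretch holds the letters CCCCTCCCC (searched on both strands), which occur in 6.37% of all 32851 windows of 300 bases in the table. A window was found for 7 of the 10 genes, and Lama1, Lamc1 and Nid2 had none.

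The windows of the laminin gene Lama5 and the fibulin gene Fbln2 are shown because these were the only members past the threshold, in opposite directions. Lama5 is at chr2:180225810-180226109 on the minus strand and Fbln2 at chr6:91212514-91212813 on the plus strand. Capitals mark the GC box letters GGGCGG on either strand.
Lama5: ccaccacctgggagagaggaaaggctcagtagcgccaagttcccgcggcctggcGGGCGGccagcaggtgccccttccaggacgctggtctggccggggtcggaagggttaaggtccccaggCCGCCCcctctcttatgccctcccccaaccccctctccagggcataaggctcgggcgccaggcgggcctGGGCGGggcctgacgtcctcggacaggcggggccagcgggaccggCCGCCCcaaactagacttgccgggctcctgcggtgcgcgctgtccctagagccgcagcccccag
Fbln2: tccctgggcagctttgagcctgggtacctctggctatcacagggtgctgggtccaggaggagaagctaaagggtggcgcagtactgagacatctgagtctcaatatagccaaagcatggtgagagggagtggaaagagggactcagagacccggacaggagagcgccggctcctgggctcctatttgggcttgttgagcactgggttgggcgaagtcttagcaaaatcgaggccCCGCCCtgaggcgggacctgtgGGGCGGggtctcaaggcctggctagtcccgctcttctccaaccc
Lama5 held 4 GC boxes and Fbln2 held 2, and 35.7% of all windows hold at least 1. The Lama5 window was 72.7% G and C and the Fbln2 window 60.3%, against a median of 52.7% over all windows. The letters GGTCTCTAA, known as a PRDM14 binding motif, and TATAAA were in none of the 7 windows, and occur in 0.256% and 13.6% of all windows. These are descriptions of letters in a short window and say nothing about binding.

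Signals are given as deposited (linear bead intensity, not background corrected) and then as normalized log2 values, on which all differences and tests rest. Of the probes on each array between 31.1% and 32.6% were above the negative control beads, at a detection p under 0.01. Probes that were undetected throughout were brighter with Prdm14 overexpression, with a median signal of 73.3 to 81.2 per array, against 59.6 to 62.8 on control arrays. Prdm14 (ILMN_1222112) had signals of 14907, 10751 and 11016 in overexpressing cells, against 801, 673 and 855 in control cells (log2 difference 3.86 ± 0.12, limma adjusted p = 1.73e-06). All 10 ES cell markers listed, among them Pou5f1, Sox2 and Nanog, were above background on all 6 arrays. None of the 10 passed the threshold used below, which 4% of all tested genes did. The groups did not overlap for 5 higher and 1 lower, against 14.7% and 15.3% of all tested genes. Nanog was among the higher, at 0.34 ± 0.09 (limma adjusted p = 0.0582). Of the 12 member probes 11 were above background on all 6 arrays and all 12 were tested.

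In overexpressing cells 1 member probe was higher and 1 was lower at a limma adjusted p under 0.01, the threshold of the study, where 1.4% of all 14604 tested probes were higher, 2.1% lower and 3.5% either. Overexpressing and control arrays did not overlap for 4 higher and 3 lower probes, against 14.5% and 14% of all tested probes (28.5% in either direction). Counted by gene, with 1 probe each, 4 were higher and 3 lower without overlap out of 9, against 14.7% and 15.3% of all tested genes (29.9% in either direction). At an adjusted p under 0.05 there were 6 of the 12, against 8.59% of all tested probes. With p-values adjusted over genes Lama5 and Fbln2 were again the only members under 0.01, against 4.34% of genes. Since the members were chosen with earlier results of these data known, an excess over these shares is no evidence about basement membrane genes. The median log2 difference of the members was 0.17 over the 9 genes, with a range of -0.998 to 0.89, against -0.0016 over all 8529 tested genes. Differences were negative for both laminin alpha chains and Nid2, and positive for the collagen IV chains, Nid1, Fbln2 and Sparc, with Lamc1 near 0.

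**Figure D1:**
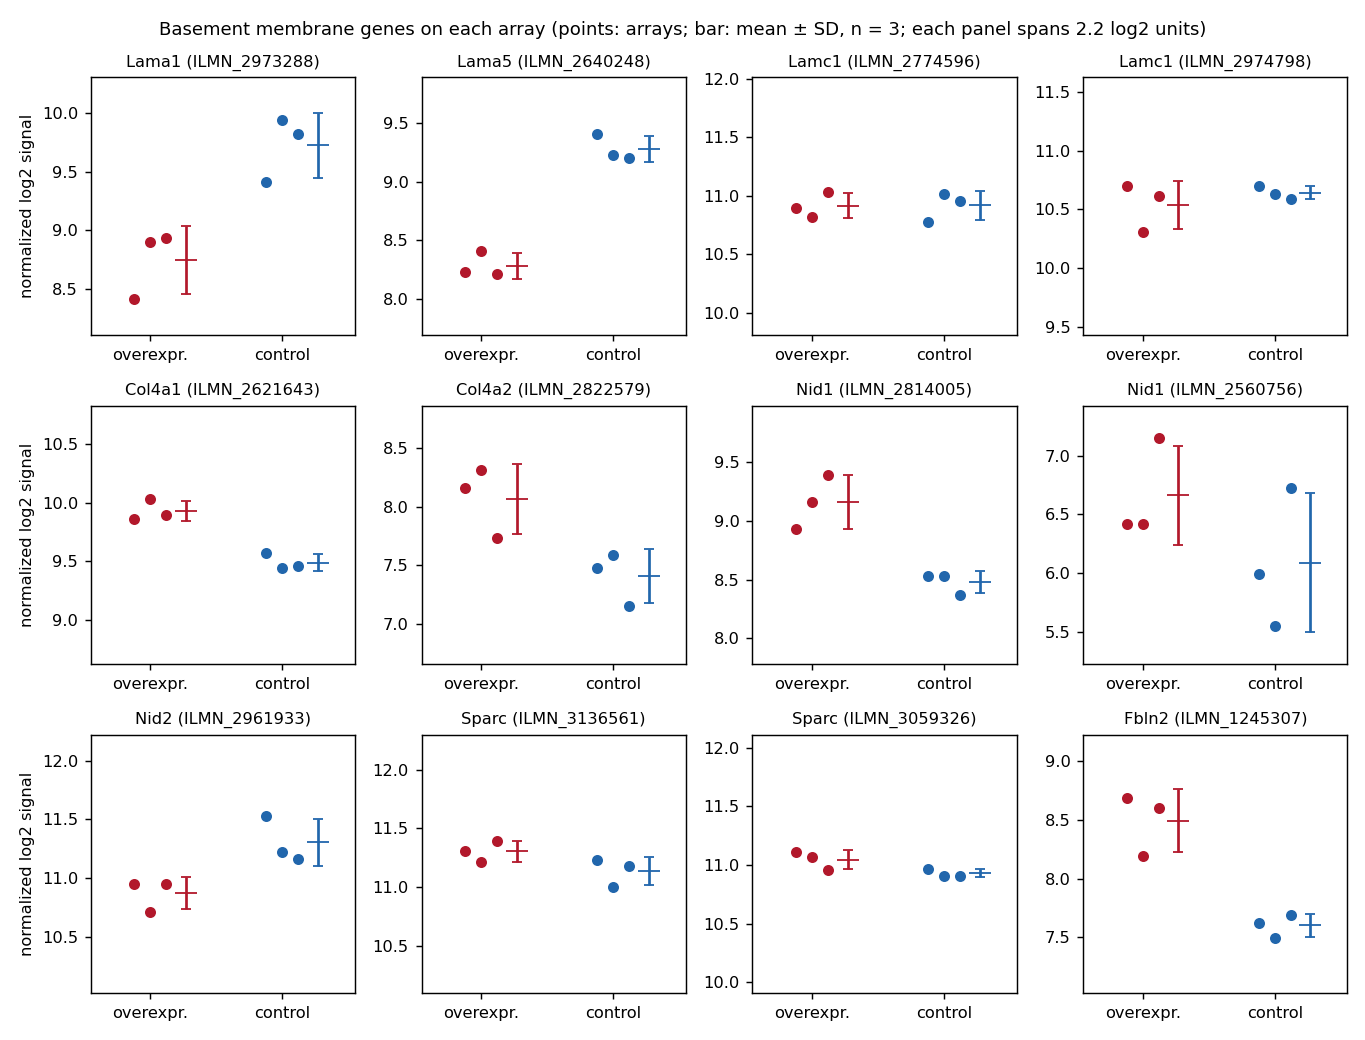
Normalized log2 signal of the 12 probes of 9 basement membrane genes (y axis, each panel spanning the same range) on the 3 Prdm14 overexpression arrays (red, left) and the 3 control vector arrays (blue, right). Points are arrays and bars are the mean ± SD (n = 3). The groups are apart for Lama1, Lama5, Nid2, Col4a1, Col4a2, Fbln2 and 1 probe of Nid1, and overlap for the other Nid1 probe and both probes of Lamc1 and of Sparc.

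Lama5, the laminin alpha chain of most mature epithelial basement membranes, fell on overexpression. Its probe (ILMN_2640248) had signals of 457, 379 and 377 in overexpressing cells, against 624, 571 and 644 in control cells. Normalized values were 8.23, 8.41 and 8.21 in overexpressing cells, while control cells had 9.41, 9.23 and 9.20. All 3 overexpression arrays lay below all 3 control arrays, and the SD was 0.11 in both groups. Lama5 fell by 1.00 ± 0.11 in log2 units (SE with 3 arrays in each group; 95% interval -1.24 to -0.76; limma adjusted p = 0.000911), or 2.00-fold. In such bulk samples fewer cells of a type and less RNA per cell cannot be told apart. Lama5 passed the threshold in all 17 alternatives that were tried, leaving out any 1 array included.

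Lama1, the laminin alpha chain of the earliest embryonic basement membranes, was close to the threshold. Its probe (ILMN_2973288) had signals of 510, 513 and 575 in overexpressing cells, against 626, 918 and 960 in control cells. Normalized values were 8.41, 8.90 and 8.93 in overexpressing cells, while control cells had 9.41, 9.94 and 9.82. The groups did not overlap, and array 1 was the lowest of its group in both. The difference was -0.98 ± 0.18 (95% interval -1.38 to -0.57; limma adjusted p = 0.0118), as large as that of Lama5 but with a wider spread. A fit that blocked on replicate number gave an adjusted p of 0.00108, and a fit of 1 probe per gene alone, which was added once the data had been seen, gave 0.00929. Without any 1 of the 6 arrays the adjusted p was 0.0167 to 0.0478, and without the detection filter it was 0.0666. Lama1 passed in 7 of 17 alternatives. The study picked Lama1 and Lama5 on these same samples, so their direction here is not independent evidence.

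Lamc1, the gamma chain that laminins with either alpha chain use, showed no detectable difference. Its brighter probe (ILMN_2774596) had normalized values of 10.90, 10.82 and 11.03 in overexpressing cells, while control cells had 10.78, 11.02 and 10.96. The arrays of both groups were interleaved. The difference was -0.0036 ± 0.11 (95% interval -0.25 to 0.24; limma adjusted p = 0.990), so a difference the size of that of Lama5 lies outside the interval. The other probe (ILMN_2974798) gave 10.70, 10.31 and 10.61 in overexpressing cells, while control cells had 10.70, 10.63 and 10.59, a difference of -0.10 ± 0.12. The sign for Lamc1 turned with median scaling and with single arrays left out.

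Ratios of pairs of genes within an array put these differences side by side. Over the 36 pairs of the 9 genes, 25 reached an exact permutation p of 0.1 (two-sided), the smallest that 3 arrays against 3 allow, and 0.144 after Benjamini-Hochberg adjustment over the pairs. None could pass a threshold of 0.05. The pairs reuse the same 9 genes, and for 7 of these the groups did not overlap. A pair of genes set apart in opposite directions reaches 0.1 by construction, so the count adds no evidence to that of single genes. The share over pairs of other genes was not computed. The log2 ratio of Lama5 to Lamc1 was lower by 0.99 in overexpressing cells, at -2.67, -2.41 and -2.82 in overexpressing cells, while control cells had -1.37, -1.79 and -1.76. The ratio of Lama1 to Lamc1 was lower in overexpressing cells in the same way, at -2.49, -1.92 and -2.10, against -1.36, -1.09 and -1.14 in control cells. For the alpha chains the groups overlapped. The ratio of Lama1 to Lama5 differed by 0.021, with 0.18, 0.50 and 0.72 in overexpressing cells, while control cells had 0.01, 0.71 and 0.62 (exact permutation p = 0.9), and it was higher in 2 of 3 same-numbered pairs. Since bead probes differ in brightness, only the change of a ratio and not its level can be read.

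**Figure D2:**
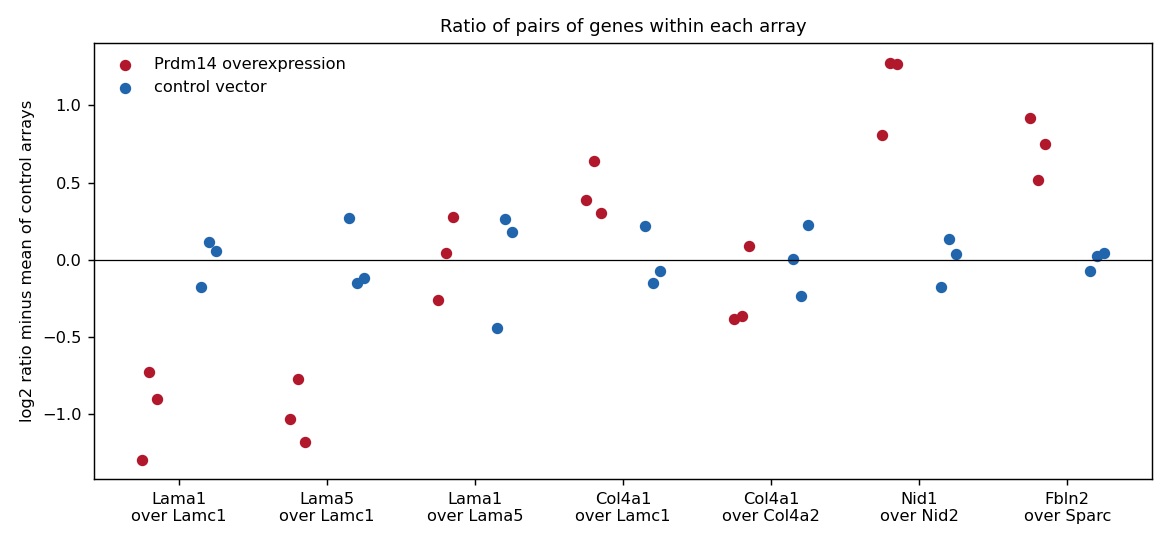
Log2 ratio of 7 pairs of basement membrane genes within each array, minus the mean of the 3 control arrays (y axis), for Prdm14 overexpression arrays (red, left of each pair) and control vector arrays (blue, right). Ratios of Lama1 and Lama5 to Lamc1 lie below those of control cells, those of Col4a1 to Lamc1, Nid1 to Nid2 and Fbln2 to Sparc lie above them, and those of Lama1 to Lama5 and Col4a1 to Col4a2 overlap.

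Neither collagen IV chain passed the threshold, and both were higher on all overexpression arrays than on all control arrays. Col4a1 (ILMN_2621643) had signals of 1241, 1053 and 1064 in overexpressing cells, against 680, 659 and 758 in control cells. Normalized values were 9.86, 10.03 and 9.90 in overexpressing cells, while control cells had 9.57, 9.44 and 9.46. The groups did not overlap, and the difference was 0.44 ± 0.10 (95% interval 0.22 to 0.66; limma adjusted p = 0.0254). Col4a1 passed in 3 of 17 alternatives, those with median scaling, trended robust variances and the deposited normalized values.

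Col4a2 (ILMN_2822579), the chain that joins Col4a1 in the common collagen IV trimer, had signals of 438, 359 and 287 in overexpressing cells, against 199, 210 and 192 in control cells. Normalized values were 8.16, 8.31 and 7.73 in overexpressing cells, while control cells had 7.48, 7.59 and 7.15. Array 3 was the lowest in both groups, and the groups still did not overlap. The difference was 0.66 ± 0.17 (95% interval 0.27 to 1.05; limma adjusted p = 0.0484). A block on replicate number gave an adjusted p of 0.00461, the lone alternative of 17 in which Col4a2 passed. The ratio of Col4a1 to Col4a2, the genes with the shared promoter stretch printed above, was 1.70, 1.71 and 2.16 in overexpressing cells, while control cells had 2.08, 1.85 and 2.32. It differed by -0.22, and the groups overlapped (exact permutation p = 0.3). Within same-numbered arrays it was lower in overexpressing cells in 3 of 3 pairs (exact sign-flip p = 0.25, the smallest that 3 pairs allow, a test added once the data had been seen).

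The nidogens, which tie laminin to collagen IV, differed in opposite directions, and neither passed the threshold. Nid1 (ILMN_2814005) had signals of 698, 598 and 766 in overexpressing cells, against 356, 366 and 379 in control cells. Normalized values were 8.93, 9.16 and 9.39 in overexpressing cells, while control cells had 8.53, 8.53 and 8.37, with no overlap. The difference was 0.68 ± 0.13 (95% interval 0.39 to 0.98; limma adjusted p = 0.0138). This probe passed in 5 of 17 alternatives, with adjusted p down to 0.00208. A dimmer Nid1 probe (ILMN_2560756), above background on 3 overexpression arrays and on 1 control array, gave 6.42, 6.42 and 7.15 in overexpressing cells, while control cells had 5.99, 5.55 and 6.72. Array 3 was the highest in both groups there, the groups overlapped, and the difference was 0.57 ± 0.30 (adjusted p = 0.291).

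Nid2 (ILMN_2961933) had signals of 2550, 1675 and 2105 in overexpressing cells, against 2525, 2247 and 2348 in control cells, which overlap. Its normalized values did not, at 10.95, 10.71 and 10.95 in overexpressing cells, while control cells had 11.53, 11.22 and 11.16. The difference was -0.43 ± 0.13 (95% interval -0.72 to -0.14; limma adjusted p = 0.0732), and none of the 17 alternatives passed. The log2 ratio of Nid1 to Nid2 was higher by 1.12 in overexpressing cells, at -2.03, -1.55 and -1.55 in overexpressing cells, while control cells had -3.00, -2.69 and -2.79 (exact permutation p = 0.1, adjusted p = 0.144 over the 36 pairs).

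Fbln2, a fibulin that binds nidogen, laminin and fibronectin, was upregulated. Its probe (ILMN_1245307) had signals of 604, 335 and 471 in overexpressing cells, against 214, 199 and 257 in control cells. Normalized values were 8.69, 8.19 and 8.60 in overexpressing cells, while control cells had 7.62, 7.49 and 7.69. The lowest overexpression array was above the highest control array, and the spread was wider among overexpressing cells (SD 0.26) than among control cells (SD 0.10). Fbln2 rose by 0.89 ± 0.14 (95% interval 0.57 to 1.21; limma adjusted p = 0.00563), or 1.86-fold. The call was lost with 1 array left out, for each array but overexpression array 2, with adjusted p from 0.0198 to 0.0302, and without the detection filter (0.0346).

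Sparc, a matricellular protein that binds collagen IV and is made in large amounts by parietal endoderm, showed no detectable difference. Its brighter probe (ILMN_3136561) had signals of 3229, 2363 and 2800 in overexpressing cells, against 2042, 1909 and 2380 in control cells. Normalized values were 11.31, 11.21 and 11.39 in overexpressing cells, while control cells had 11.23 on array 1, 11.18 on array 3 and their lowest value on array 2, and the groups overlapped. The difference was 0.17 ± 0.10 (95% interval -0.07 to 0.40; limma adjusted p = 0.387), and 0.12 ± 0.09 for the other probe (ILMN_3059326; adjusted p = 0.510). The log2 ratio of Fbln2 to Sparc was higher by 0.72 in overexpressing cells, without overlap of the groups.

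**Figure D3:**
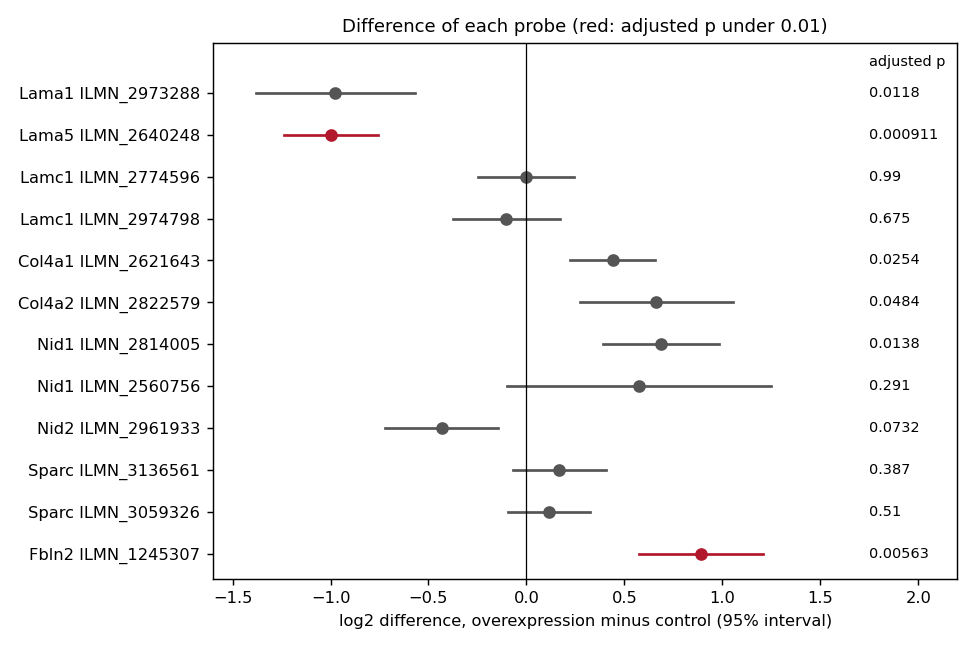
Log2 difference of each member probe, Prdm14 overexpression minus control vector (x axis), with its 95% interval from limma and the adjusted p at the right. Lama5 at -0.998 and Fbln2 at 0.89 (red) passed an adjusted p of 0.01, Lama1 and Nid1 lay just outside it, and the intervals of Lamc1 and Sparc include 0.

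The genes whose pattern over the 6 arrays was most like that of a called member were found by the root mean square difference of log2 values centred on the gene, among 8528 other tested genes. For Lama5 they were the carbonic anhydrase gene Car2 (0.039), the glutathione transferase gene Gstm2 (0.059) and Vwa5a (0.091). For Fbln2 they were the transcription factor gene Tfcp2 (0.092), Stac2 (0.11) and the integrin alpha chain gene Itgae (0.12). The nearest other member was further off: Lama1 ranked 242 for Lama5 (0.27), and Nid1 ranked 203 for Fbln2 (0.26).

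Of 16 cell surface receptors for laminin and collagen 12 were tested, with a median log2 difference of -0.011. None of the 10 that were detected in both groups passed the threshold, where 1.5% of all tested genes were higher and 2.5% lower. The other 2, Bcam and Ddr2, entered the test only through the group in which they were high, so their p-values are given without the detection filter, over all 45281 probes. Bcam, a receptor for the laminin alpha chain encoded by Lama5, had signals of 133, 112 and 126 in overexpressing cells, against 176, 172 and 237 in control cells. It was not above background in overexpressing cells and at least 2.27-fold lower than in control cells (limma adjusted p = 0.00501 without the filter). Ddr2, a collagen receptor tyrosine kinase, had signals of 159, 141 and 143 in overexpressing cells, while control cells had 84.0, 75.8 and 72.5. It was not above background in control cells and at least 1.05-fold higher in overexpressing cells, and without the filter it did not pass (adjusted p = 0.0183). For these bounds the dim group's level on each array was taken as the probe's own value or the lowest value of any detected probe, whichever was higher. Itgb1, the common integrin beta chain, differed by 0.02 ± 0.12, its laminin-binding partner Itga6 by -0.30 ± 0.19 (adjusted p = 0.384), and dystroglycan (Dag1) by -0.04 ± 0.12.

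None of the other matrix genes passed the threshold. Of 19 other basement membrane proteins 6 were tested, with a median of -0.21 and values from -0.37 ± 0.11 for the collagen XVIII gene Col18a1 to 0.43 ± 0.10 for the SPARC-related gene Smoc1 (limma adjusted p = 0.0689 and 0.0342). The perlecan gene Hspg2 differed by 0.03 ± 0.11. Of 20 genes for folding, modification and cross-linking of matrix proteins 14 were tested, with a median of -0.012. The elastin and collagen cross-linking enzyme gene Loxl1 was the nearest to the threshold, at 0.77 ± 0.15 (adjusted p = 0.0143), and the collagen chaperone gene Serpinh1 differed by -0.08 ± 0.14. Of 14 protease and inhibitor genes 7 were tested, with a median of -0.094, and the membrane-bound protease gene Mmp14 differed by -1.21 ± 0.23 (adjusted p = 0.0146). Loxl1, Mmp14, Smoc1, Col18a1, Hspg2 and Serpinh1 were named after their values were seen. Of 7 other laminin chains only Lamb2 was tested (-0.0096 ± 0.12), and none of the 4 other collagen IV chains had a named probe. At an unadjusted p under 0.05 there were 7 of 9 members, which were chosen with earlier results known, and 2067 of 8529 tested genes.

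**Figure D4:**
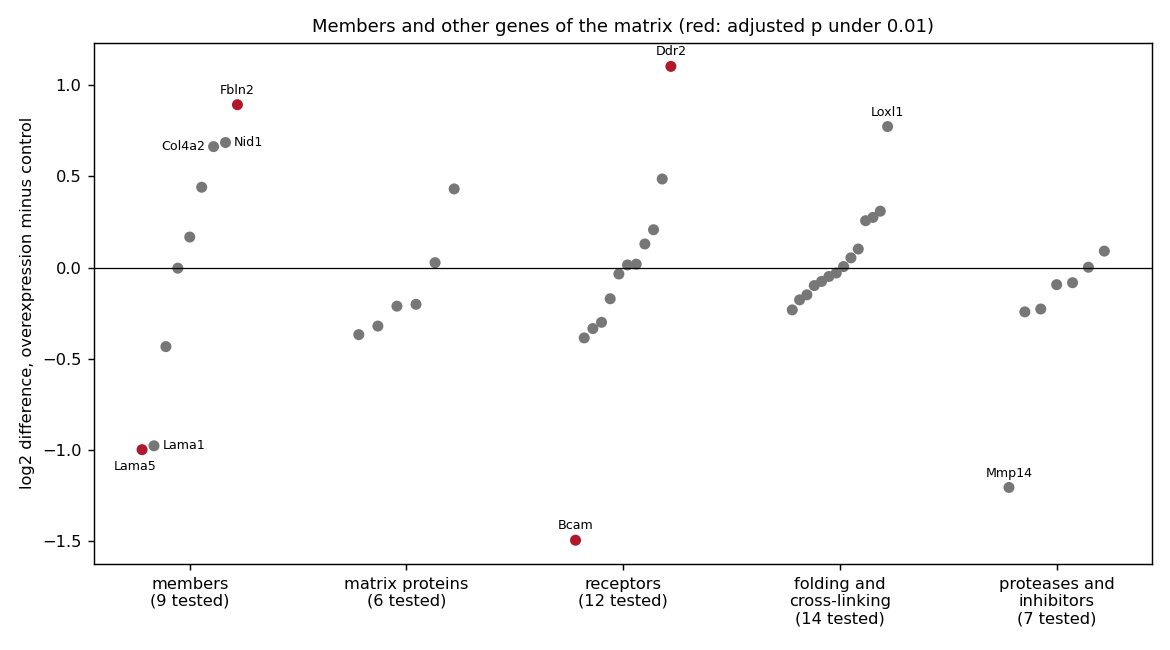
Log2 difference, Prdm14 overexpression minus control vector (y axis), of the members and of 4 lists of matrix, receptor, folding and protease genes (x axis, 1 probe per gene, sorted within a list). Red points passed a limma adjusted p of 0.01 with the detection filter, and only Lama5, Fbln2, Bcam and Ddr2 did among those shown. Bcam and Ddr2 were detected in 1 group only and entered the test through the group in which they were high. Without the filter Bcam passed (limma adjusted p = 0.00501) and Ddr2 did not (0.0183).

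Markers of other cell types that make basement membrane were read beside the members. Of 19 primitive endoderm markers that are not members 8 had a named probe and 6 were tested. Apoe, which many cell types express, fell (-1.21 ± 0.11, limma adjusted p = 0.000401) and the other 5 did not pass. Their differences had both signs, at 0.64 for Cited1 (adjusted p = 0.0193), 0.38 for Sox7, -0.04 for Hnf4a, -0.19 for Amn and -0.55 for Lrp2 (adjusted p = 0.0156). Gata4, Sox17 and Pdgfra had no named probe. Gata6 and Dab2 did not enter the test. Gata6 was above background on 1 overexpression array and no control array, and Dab2 on no overexpression array and 2 control arrays. Genes without a named probe may still have unnamed probes on the array, and their levels are unknown here. The summed normalized level of the 8 genes was 1710 to 1845 in overexpressing cells and 2632 to 2730 in control cells, and without Apoe the groups overlapped, at 1091 to 1125 in overexpressing cells and 995.7 to 1294 in control cells. Of 14 fibroblast and feeder markers 5 were tested. Col5a1 differed by 0.34 (limma adjusted p = 0.0712), Vim by 0.15, Twist1 by -0.03 and Thy1 by -0.15, and none of these passed. Acta2 was not above background in overexpressing cells and at least 2.93-fold lower than in control cells. Acta2 too entered the test only through the group in which it was high (limma adjusted p = 0.00691 without the filter), and the collagen I and III genes had no named probe. The summed level of the 5 genes was 2936 to 3162 in overexpressing cells and 2655 to 3179 in control cells. Most of this sum is Vim, the brightest of the 5 (mean log2 10.91 in overexpressing and 10.77 in control cells). A change in a dim gene such as Acta2 hardly moves it. The part of such cells in the differences of Lama1, Lama5, Fbln2, Nid1 and the collagen IV genes was not tested.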

How the data were processed

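Total RNA of 6 cultures was hybridised to Illumina Mouse WG-6 BeadChips. The authors deposited the average bead signal intensity of each probe as linear values with neither background correction nor normalization, and beside it a detection p-value against the negative control beads. The sources used here do not name the scanner software. They also deposited log2 values normalized with lumi, for 15944 probes. The columns of that table were matched to the signals through each probe's departures from its mean (r = 0.904 to 0.912), and 4 of 6 matched another array than the one named, so it was used only as an alternative, with columns given to the arrays they matched.

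Here the neqc function (limma 3.58.1, R 4.3.3) applied normexp with the background inferred from detection p, an offset of 16, quantiles and log2. A probe was tested if its detection p was under 0.01 on 3 or more arrays, 14604 in all, with lmFit and eBayes and Benjamini-Hochberg adjustment over all probes (threshold 0.01). The script was tested on simulated data. Symbols came from the platform annotation, for the probes of the authors' normalized table only, updated by gene identifier (13765 of 13778 probes with 1 symbol matched). 6 probes with several symbols were not named, nor were the probes of the array without a symbol in the annotation used. A gene of a list was represented by its brightest tested probe. Same-numbered arrays of both groups deviated together (r = 0.121, 0.390 and 0.324 over tested probes), though the labels do not say that a number pairs the groups. The main fit and the exact permutation tests of ratios did not pair the arrays. Pairs were used only in the replicate block, which was an alternative, and in the comparisons of same-numbered arrays. Alternatives were other scalings, background corrections, filters, variances, the replicate block, single arrays left out and 1 probe per gene.

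The members and lists were chosen with earlier results of these data known. Named were the members, Prdm14, list genes past the threshold, Itgb1, Itga6, Dag1 and the 3 genes most like each called member. Besides matrix, receptor, folding and protease lists, markers of ES cells, primitive and parietal endoderm, fibroblasts, endothelium and trophoblast were read. The number of arrays limits the precision.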

Additional observations from a re-analysis of the deposited data

How the results depend on the processing

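Lama5 kept its direction and its call in all 17 alternatives (adjusted p up to 0.00865). Apart from Lamc1, the other member probes kept their sign in every alternative in which they were tested. The Lamc1 difference turned to 0.10 (ILMN_2774596) with median scaling, and ranged from -0.0757 to 0.0464 without 1 array, and from -0.184 to 0.0119 for ILMN_2974798. The number of higher member probes was 1 in the main analysis, 3 with median scaling, with trended robust variances or with the deposited normalized values, 2 without background correction, with an offset of 50 or with the replicate block, 0 without the detection filter, and 0 to 1 without 1 array. The number of lower ones was 1, and 2 with cyclic loess, without background correction, with an offset of 50, with trended robust variances, with the replicate block, with the deposited normalized values or with 1 probe per gene fitted alone, Lama1 being the second each time. With the replicate block Lama1 and Col4a2 were added to the calls, and no member lost its call. Fbln2 differed by 0.54 in the deposited normalized values, against 0.89 here. Median scaling moved the median difference over all tested probes to 0.13, against 0.0075, and the share of higher probes among called ones to 61.2%, against 39.9%. Called probes over the whole array numbered 511, and 128 to 290 without 1 array, 148 without the detection filter, 857 with trended robust variances and 657 with the replicate block.

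Among the other lists, 1 matrix protein was higher with trended robust variances and with the deposited normalized values, and 1 lower with trended robust variances. Of the receptors 0 were higher without the detection filter, with probes detected on all 6 arrays and with the deposited normalized values, and 0 to 1 without 1 array, and 0 were lower with probes detected on all 6 arrays and 0 to 1 without 1 array. Of the folding genes 1 was higher with median scaling, without background correction, with an offset of 50, with trended robust variances, with the replicate block and with the deposited normalized values. Of the proteases 1 was lower without background correction, with an offset of 50, with trended robust variances and with the replicate block, and 0 to 1 without 1 array. Requiring probes on all 6 arrays, or leaving out an array of the 1 group that detected them, leaves out Bcam and Ddr2 by construction. The cause of the other changes was not tested. Dim probes, such as the second Nid1 probe, lie near background, and their sizes depend on the correction.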

Other observations

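Of the remaining markers, 1 of 5 parietal endoderm genes (Snai1, log2 difference -0.37 ± 0.14, limma adjusted p = 0.138), 2 of 5 endothelial genes (Pecam1 at 0.12 ± 0.12 and Tek at -0.20 ± 0.18) and 1 of 6 trophoblast genes (Gata3 at -0.20 ± 0.11) were tested, and none passed. Of the ES cell markers Klf4 came nearest to the threshold, at 0.65 ± 0.12 (adjusted p = 0.0138), and Pou5f1 differed by 0.03 ± 0.11.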
